A study of Coelastrella tenuitheca with 9 samples.

Results

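Antenna proteins of the light-harvesting complexes hold chlorophyll a and chlorophyll b in the thylakoid membrane of plants and green algae and pass absorbed light energy to the reaction centres of the photosystems. They are made by a family of nuclear genes, and green algae carry many similar copies of them. The messenger RNAs of 10 such copies were compared in the freshwater green microalga Coelastrella tenuitheca S93-3 after growth with cadmium chloride. The 10 are those with the most counts, summed over all libraries, among 15 genes of the deposited table whose product name contains chlorophyll a-b, out of 12605 genes in all. The members were chosen by their summed raw counts, so their levels are given as a description. The rule did not use the comparisons between cadmium concentrations, but it was set with earlier results of these data known.

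Wild-type cells were pre-cultured under continuous light in modified BG-11 medium with glucose, then moved to fresh modified BG-11 with 0, 20 or 50 mg/L CdCl2 for 7 days. Whole-cell RNA, poly(A)-selected and strand-specific, was sequenced in 3 libraries per group, named Control, Cd20 and Cd50 with a replicate number, and the labels put all 9 in batch 1. Values of single libraries are listed below in the order of replicates 1 to 3. Nothing in the labels says that the 3 libraries were grown as separate cultures, and a p-value here covers the spread of these libraries alone, which may be technical. Total counts per library ranged from 10457007 to 15456743. On the first principal component of all genes Control 1 (-12.2) and Cd50 1 (17.7) lay nearer to the Cd20 libraries (-58.1 to -45.0) than the other libraries of their groups (13.8 and 29.0, and 51.3 and 52.7).

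All 15 genes carry the same product name, putative chlorophyll a-b binding protein 3C, matched to an entry of Pyricularia oryzae, a fungus that does not photosynthesise. The name is therefore a similarity only, and it does not tell antenna proteins of photosystem I from those of photosystem II. Only 19.5% of the genes in the table have any product text, so further antenna genes may lie among the undescribed ones. As a check of the labelled cell type, the Rubisco small chain gene A03462, of the carbon-fixing enzyme of photosynthetic cells, was between 1029 and 2267 CPM (counts relative to library size, with TMM factors) in the 9 libraries. The 10 antenna genes, all above 10 CPM in every library, were chosen by their counts and give no such check.

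The 10 copies were spread over 8 chromosomes of the deposited coordinates (build not given in the sources used here). The copy with the most counts, A01726 (chromosome 13, 1243228 to 1246960), had 28914 counts over the 9 libraries. A10323 (chromosome 8, 3761711 to 3764589) had 13649 and A02975 (chromosome 15, 2626195 to 2627905) had 12808. Then came A10888 (chromosome 9, 2288279 to 2290074) with 6029, A00964 (chromosome 11, 3246208 to 3247983) with 5999 and A02981 (chromosome 15, 2671583 to 2673538) with 5682. The remaining members were A02505 (chromosome 14, 2266696 to 2269125), A03391 (chromosome 16, 2173019 to 2177541), A01219 (chromosome 12, 3717265 to 3719872) and A02982 (chromosome 15, 2676108 to 2677952), with 5056, 4634, 2494 and 1694 counts. The rule's limit fell between A02982 and A10197 (1011 counts), which was left out, as was A00582 (982 counts).

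The deposited lengths of the 10 genes were alike, from 735 to 879 bases, and each was a multiple of 3, so they are taken as coding lengths. The genes spanned 1711 to 4523 bases of the chromosome. The coding length filled 17.2% of the span in A03391 and 21.9% in A01726, against 43.0% in A02975 and 42.8% in A10888. A00964, A02981 and A02982 shared a coding length of 744 bases, and A10323 and A10888 one of 768 bases. How the authors' counting treated strand and reads shared by similar copies is not stated in the labels or headers, which leaves the value of any single copy uncertain to that extent.

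Compared per length within a library, in FPKM (fragments per kilobase of coding length, scaled to the library total), the untreated cells held most transcript of A01726, at 270.5 ± 26.8 (SD, n = 3). A10323 followed at 192 ± 11.5. A10888, A00964, A02975 and A02981 came next at 124 ± 9.70, 122 ± 22.4, 105 ± 8.79 and 101 ± 25.4, and each overlapped its neighbour in this order. Below them lay A02505 (53.8 ± 2.83), A03391 (36.6 ± 3.99), A02982 (24.8 ± 2.49) and A01219 (18.2 ± 3.01), without overlap between neighbours. Over all 9 libraries A01726 ranked 404 of 12605 genes by mean FPKM, A02975 856, A10323 864 and A02982 4690.

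The order was not the same at 20 and 50 mg/L. FPKM is scaled to the library total, so the order is read within each group and levels are not compared across groups. At 20 mg/L A01726 stayed first at 277 ± 34.4 FPKM and A02975 was second at 182 ± 3.10, ahead of A10323 at 154 ± 21.7 without overlap. A10888, A02981 and A00964, which had all been above A02505 in control, lay below it at 30.6 ± 5.63, 28.7 ± 6.44 and 28.1 ± 3.68, overlapping A01219 (31.6 ± 3.34) or one another in the lower part of the order. At 50 mg/L A01726 was first at 459.7 ± 59.4 and A02975 second at 209.7 ± 24.3. Next came A10323 at 146 ± 5.53 and A02981 at 83.6 ± 1.11. A00964, A03391, A02505 and A10888 lay between 70.1 ± 6.04 and 57.1 ± 4.91, each overlapping the next, and A02982 was last at 23.4 ± 1.1.

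At 20 mg/L CdCl2, 4 of the 10 antenna genes fell against control, 3 rose and 3 did not pass (edgeR quasi-likelihood test, adjusted p under 0.05 over all 11140 genes tested). Over all genes 27.2% were called lower and 23.8% higher, in all 51.0%, beside 7 of 10 among the members. The members were chosen for large counts, and all genes tested include many with fewer. In all 3 comparisons these shares are therefore not of genes of like count. The groups did not overlap in 8 of the 10, against 61.6% of all genes tested. The median log2 fold change of the members was -0.02, beside -0.03 over all genes, with a range from -1.99 to 0.93. In these bulk samples fewer cells with a transcript and less of it per cell cannot be told apart.

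**Figure D1:**
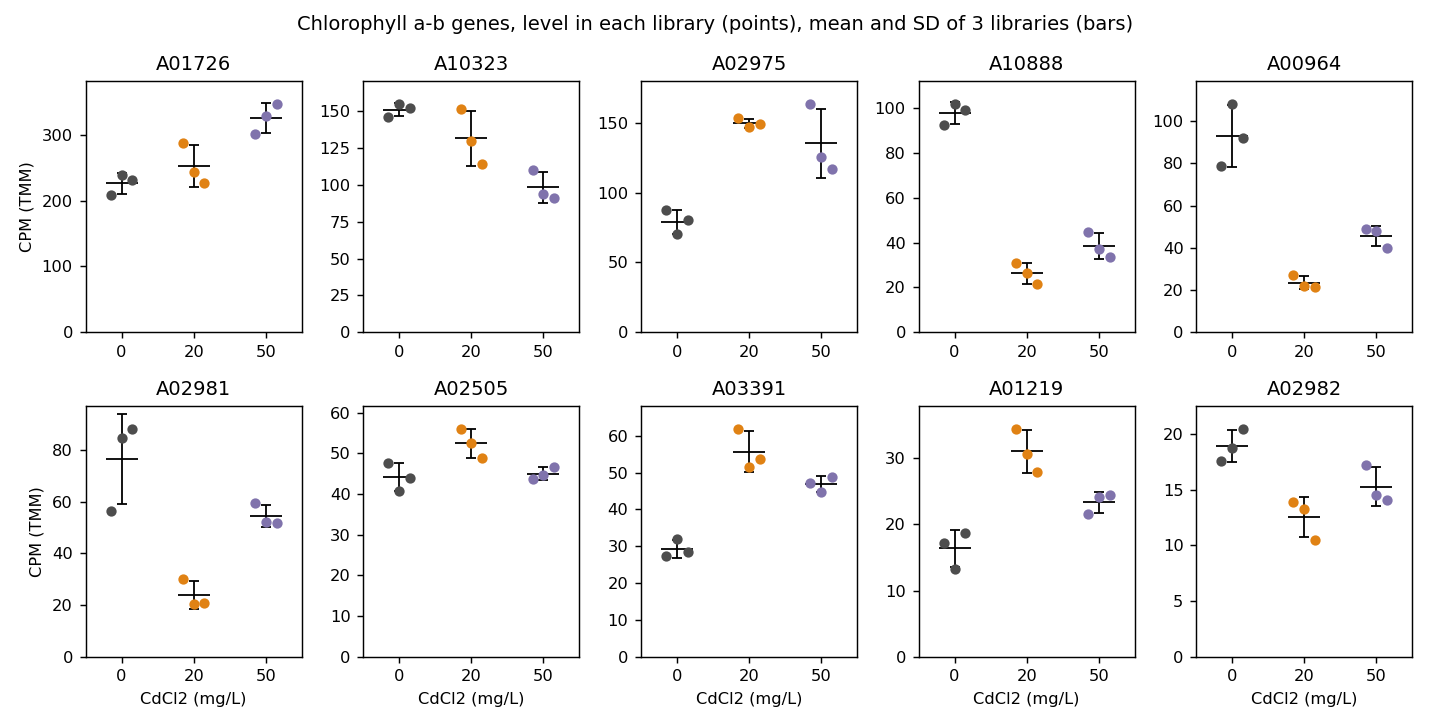
Level of each of the 10 chlorophyll a-b genes in CPM with TMM factors (vertical axis, from 0, own scale per panel) at 0, 20 and 50 mg/L CdCl2. Points are libraries and bars the mean and SD of 3 libraries. A10888 and A00964 are highest at 0 mg/L and lowest at 20 mg/L without overlap, while A02975, A03391 and A01219 are lowest at 0 mg/L.

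A00964, A10888 and A02981 had the deepest falls at 20 mg/L among the members. In CPM, A00964 was at 78.9, 108 and 91.9 in Control, 27.0, 21.9 and 21.3 in Cd20, and 49.0, 47.9 and 39.9 in Cd50. All 3 groups stood apart, with 50 mg/L between the others. Its log2 fold change was -1.99 (SE 0.15) at 20 mg/L, a level 3.97-fold lower (edgeR adjusted p = 1.35e-06), and -1.03 (SE 0.14) at 50 mg/L (edgeR adjusted p = 0.000171).

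A10888 was at 92.6, 102 and 99.2 CPM in Control, 30.9, 26.6 and 21.3 in Cd20, and 44.7, 37.0 and 33.5 in Cd50. Again no library of one group reached the range of another. The log2 fold change was -1.90 (SE 0.15) at 20 mg/L and -1.35 (SE 0.14) at 50 mg/L, where the level was 2.55-fold lower (edgeR adjusted p = 2.01e-06 and 2.61e-05). This was the deepest fall at 50 mg/L among the 10 members.

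A02981 was at 56.5, 84.7 and 88.3 CPM in Control, 30.2, 20.6 and 20.9 in Cd20, and 59.3, 52.0 and 51.6 in Cd50. Control 1 was the lowest control and lay inside the range of Cd50, while Cd20 was below all other libraries. At 20 mg/L the log2 fold change was -1.68 (SE 0.19, edgeR adjusted p = 3.55e-05). At 50 mg/L it was -0.49 (SE 0.18) with an edgeR adjusted p of 0.0466, a call that was lost with a replicate block (adjusted p = 0.0538) and held in 6 of 19 alternatives, over which the adjusted p ranged from 0.000138 to 0.324. Leaving out Control 2, Control 3, Cd20 2, Cd20 3, Cd50 2 or Cd50 3 each ended it (edgeR adjusted p of 0.0561 to 0.174), and with library size alone the log2 fold change was -0.27 (adjusted p = 0.238).

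A02982, the member with the fewest counts summed over the libraries, at 101 to 256 counts per library, was the other gene lower at 20 mg/L. It ranged from 17.6 to 20.5 CPM in control, from 10.5 to 13.9 in Cd20 and from 14.0 to 17.2 in Cd50, with no overlap between the groups. The log2 fold change was -0.59 (SE 0.15, edgeR adjusted p = 0.00628) at 20 mg/L and -0.31 (SE 0.14) at 50 mg/L, which did not pass (edgeR adjusted p = 0.105, and 0.0397 without Cd50 1).

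A02975, A03391 and A01219 rose at both concentrations, by 1.89- to 1.90-fold at 20 mg/L. A02975 was at 87.4, 70.3 and 80.0 CPM in Control, 153, 147 and 149 in Cd20, and 164, 125 and 117 in Cd50. Every cadmium library lay above every control. The level rose 1.89-fold at 20 mg/L (log2 fold change 0.92, SE 0.13) and 1.71-fold at 50 mg/L (0.77, SE 0.13), with edgeR adjusted p of 0.00019 and 0.000762.

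A03391 was at 27.3, 32.1 and 28.5 CPM in Control, 62.0, 51.5 and 53.7 in Cd20, and 47.1, 44.7 and 48.9 in Cd50. The 3 groups did not overlap, with Cd20 highest. Its log2 fold changes were 0.93 (SE 0.11) and 0.68 (SE 0.11) at 20 and 50 mg/L, with edgeR adjusted p of 6.29e-05 and 0.000677. A01219, which has the longest coding sequence of the 10, ranged from 13.3 to 18.7 CPM in control, 28.0 to 34.5 in Cd20 and 21.6 to 24.4 in Cd50, again without overlap. It rose by 0.92 (SE 0.15) and 0.51 (SE 0.15) on the log2 scale (edgeR adjusted p = 0.000404 and 0.0164).

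At 50 mg/L against control 4 of the 10 genes fell, 4 rose and 2 did not pass, where 21.8% of all genes tested were called lower and 17.8% higher, in all 39.6%, beside 8 of 10 among the members. The groups did not overlap in 8 of the 10, against 46.9% of all genes. The median of the members was -0.14 on the log2 scale, beside 0.03 over all genes. The members called were A10888, A00964, A02981 and A10323 among the falls and A02975, A03391, A01219 and A01726 among the rises.

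A01726, the most abundant copy, was at 208, 239 and 231 CPM in Control, 288, 243 and 227 in Cd20, and 302, 328 and 347 in Cd50. Control and Cd20 overlapped, and Cd50 lay above both. Its log2 fold change was 0.16 (SE 0.11) at 20 mg/L, which did not pass (edgeR adjusted p = 0.240), and 0.53 (SE 0.11) at 50 mg/L, where the level rose 1.44-fold (edgeR adjusted p = 0.0028). The difference between the concentrations passed its own test at 0.37 (SE 0.11, edgeR adjusted p = 0.01).

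A10323, the second copy by counts, went the other way. It was at 146, 155 and 152 CPM in Control, 151, 130 and 114 in Cd20, and 110.0, 93.6 and 91.2 in Cd50. Control and Cd20 overlapped through Cd20 1, and Cd50 lay below both. The log2 fold change was -0.20 (SE 0.12) at 20 mg/L (edgeR adjusted p = 0.173), where scaling by the library total made it pass (-0.32, edgeR adjusted p = 0.0249), as did leaving out Cd20 1 (-0.34, edgeR adjusted p = 0.0456), and -0.62 (SE 0.12) at 50 mg/L (edgeR adjusted p = 0.00156).

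A02505 was not called in any of the 3 comparisons. It ranged from 40.7 to 47.7 CPM in control, from 48.9 to 56.1 in Cd20 and from 43.7 to 46.7 in Cd50. Cd20 lay above the other groups, which overlapped. Its log2 fold change was 0.25 (SE 0.10) at 20 mg/L, with an edgeR adjusted p of 0.0630 that became 0.0270 without Control 1, 0.0480 without Cd50 1 and 0.00659 without both, and 0.03 (SE 0.10) at 50 mg/L (edgeR adjusted p = 0.853).

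**Figure D2:**
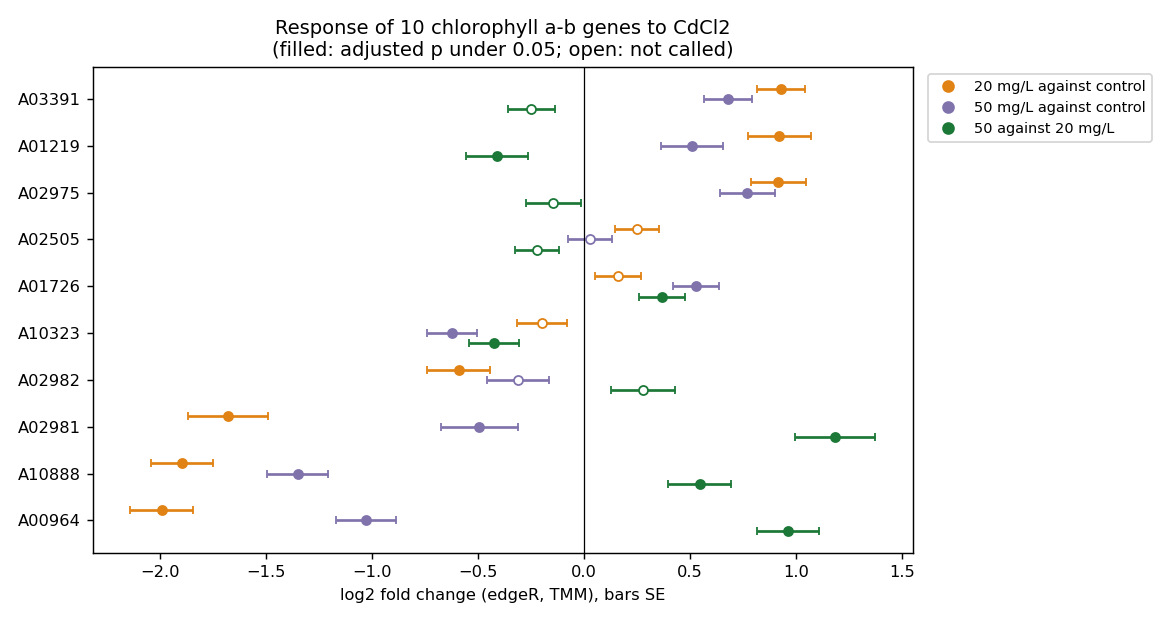
Log2 fold change of the 10 chlorophyll a-b genes (edgeR with TMM, bars SE, horizontal axis) in the 3 comparisons, which share libraries; filled points have an adjusted p under 0.05. The green points (50 against 20 mg/L) of A02981 (1.18), A00964 (0.96) and A10888 (0.55) lie opposite to their orange and violet points.

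Between the concentrations, 50 against 20 mg/L, 4 of the 10 genes were higher, 2 lower and 4 not called, where 35.3% of all genes were called higher and 34.7% lower, in all 70.0%, beside 6 of 10 among the members. The groups did not overlap in 9 of the 10, against 74.5% of all genes. The copies with the deepest falls at 20 mg/L were those higher at 50 than at 20 mg/L, together with A01726. On the log2 scale they were A02981 by 1.18 (SE 0.19), A00964 by 0.96 (SE 0.15) and A10888 by 0.55 (SE 0.15). The edgeR adjusted p of these 3 ranged from 0.000199 to 0.00587. The same Cd20 libraries enter both contrasts with opposite sign, so copies picked for low values there tend to rise in the second, and the opposite directions are not separate evidence. A10323 (-0.42, SE 0.12, edgeR adjusted p = 0.0069) and A01219 (-0.41, SE 0.14, edgeR adjusted p = 0.0232) were lower at 50 mg/L. Neither fall passed with library size alone, at -0.07 and -0.05, a scaling that moved the median of all genes from 0.03 to 0.38, nor without Cd20 1 (edgeR adjusted p = 0.0635 and 0.136). A01219 was also not called without Cd20 2 (edgeR adjusted p = 0.0517). A02975, A02505, A03391 and A02982 were at -0.15, -0.22, -0.25 and 0.28 without passing (edgeR adjusted p of 0.0636 to 0.326), and A02975 passed without Cd50 1 (-0.31, edgeR adjusted p = 0.0162). A03391 passed as lower with DESeq2 (-0.28, DESeq2 adjusted p = 0.0392), with DESeq2-type factors in edgeR (edgeR adjusted p = 0.0391) and without Control 1 and Cd50 1 together (edgeR adjusted p = 0.0400), and A02505 with DESeq2-type factors (-0.25, edgeR adjusted p = 0.0482). With library size alone the first 3 of these were above 0 and A02982 passed at 0.63 (edgeR adjusted p = 0.00297).

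Of the 10 genes, the authors' deposited table lists 7 at 20 mg/L, 8 at 50 mg/L and 6 between the concentrations. For A00964 the authors' deposited table gives a log2 fold change of -1.96 at 20 mg/L and -1.04 at 50 mg/L. For A02981 at 50 mg/L the authors' deposited table gives -0.50 with an adjusted p of 0.0316.

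The 10 copies together held 0.0812% ± 0.0069 of all counts in control, 0.0680% ± 0.0070 at 20 mg/L and 0.0950% ± 0.0032 at 50 mg/L (SD, n = 3). With TMM factors their summed level was 833 ± 46.0, 759 ± 78.6 and 828 ± 25.9 CPM. With library size alone it was 812 ± 68.7, 679.7 ± 69.7 and 949.6 ± 32.0 CPM, so that at 50 mg/L the sum lay slightly below control with one scaling and above it with the other.

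The make-up of the antenna transcripts, which does not depend on how libraries are scaled, differed between the groups. A01726 held 27.1% ± 0.48 of the counts of the 10 genes in control, 33.2% ± 0.70 at 20 mg/L and 39.4% ± 3.83 at 50 mg/L (SD, n = 3). A10888, A00964 and A02981, grouped here after their values were seen, together held 32.0% ± 2.51 in control, 9.64% ± 0.67 at 20 mg/L and 16.7% ± 1.25 at 50 mg/L. A02975, A03391 and A01219, grouped in the same way, went from 15.1% ± 1.78 to 31.3% ± 1.87 and 24.8% ± 2.0. The ranges of the 3 groups did not overlap for either trio, which the choice of the trios by their values favours, so this is no test. Shares of the 10 genes also depend on one another, and a fall of some lifts the shares of the rest. At 20 mg/L A01726 itself was not called against control (log2 fold change 0.16, edgeR adjusted p = 0.240).

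**Figure D3:**
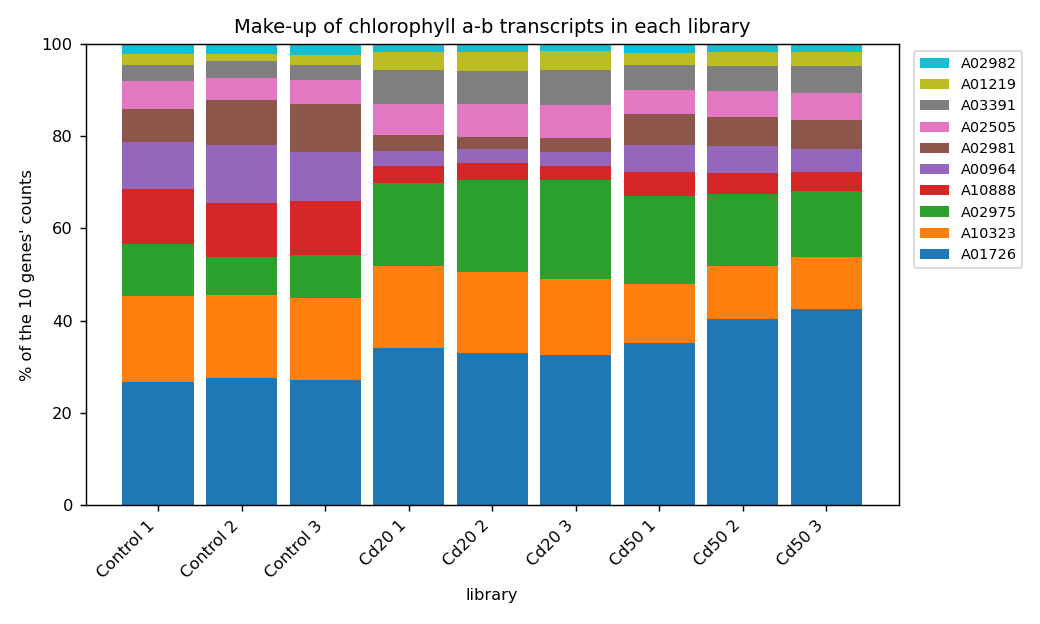
Percent of the counts of the 10 chlorophyll a-b genes held by each gene (stacked, adding to 100%) in each of the 9 libraries. The red, violet and brown blocks (A10888, A00964 and A02981) together take 32.0% on average in control and 9.64% in Cd20, while A01726 (blue, at the base) takes 27.1% and 39.4% in control and Cd50.

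Chromosome 15 carries 3 of the 10 copies, which did not change alike. A02981 and A02982 are next to each other with no gene between them and 2569 bases apart, and A02975 lies 43677 bases from A02981 with 6 genes between. With 20 mg/L A02975 rose while A02981 and A02982 fell. The ratio of A02981 to A02982 counts, which have the same coding length, was 3.21, 4.52 and 4.31 in Control, 2.17, 1.55 and 1.99 in Cd20, and 3.44, 3.59 and 3.68 in Cd50. The ratio was lower in Cd20 than in every other library, and Cd50 lay inside the range of control.

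Between 20 mg/L and control the log2 of that ratio differed by -1.07 (SE 0.21), and between 50 mg/L and control by -0.15 (SE 0.16). The two-sided exact permutation test gave p = 0.1 for the first, the smallest p that 3 libraries against 3 allow, and p = 0.4 for the second. For A02975 against A02981 the log2 ratio differed by 2.60 (SE 0.33) at 20 mg/L and by 1.23 (SE 0.29) at 50 mg/L, both at that smallest p of 0.1 in the exact permutation test. For A10323 against A10888, of equal coding length on different chromosomes, the log2 ratio was higher by 1.71 (SE 0.05) at 20 mg/L and by 0.73 (SE 0.05) at 50 mg/L, without overlap (exact permutation p = 0.1 for each). For A00964 against A02981, also of equal length, it differed by -0.31 (SE 0.15) at 20 mg/L with overlapping groups (exact permutation p = 0.2), and by -0.55 (SE 0.15) at 50 mg/L without overlap (exact permutation p = 0.1). None of the pairs could pass a threshold of 0.05 with 3 libraries a group. Over the 18 such tests, on 6 pairs that share a length or a chromosome in 3 comparisons, the lowest adjusted p was 0.12 (exact permutation, Benjamini-Hochberg).

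**Figure D4:**
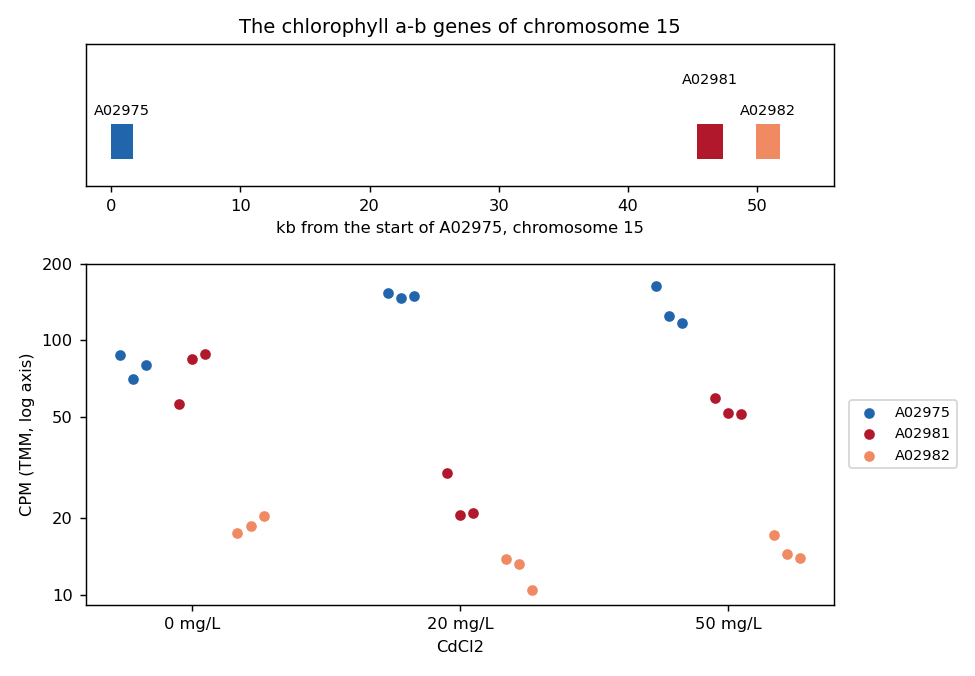
Upper panel, positions of A02975, A02981 and A02982 on chromosome 15 in kilobases from the start of A02975. Lower panel, CPM of each library (log axis) at 0, 20 and 50 mg/L CdCl2; at 20 mg/L A02975 lies between 147 and 153 and A02981 between 20.6 and 30.2, while both are between 56.5 and 88.3 at 0 mg/L.

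The genes on either side of the 10 copies were not antenna genes by name apart from the A02981 and A02982 pair. Of 18 such flanking genes 15 were tested. Of these, 6 were higher and 2 lower at 20 mg/L, beside 23.8% and 27.2% of all genes. At 50 mg/L 0 were higher by edgeR or DESeq2 (1 at an unadjusted p under 0.05 by either, and 6 with library size alone in edgeR) and 3 lower, beside 17.8% and 21.8%. Between the concentrations 2 were higher and 9 lower, beside 35.3% and 34.7%, and over the 19 alternatives the number lower ranged from 4 to 10. In 6 cases a copy and its flanking gene were both called at 20 mg/L, 1 of them in the same direction.

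Of the 5 chlorophyll a-b genes below the rule's limit, 3 passed the filter on low counts and 2 did not, with 25 and 9 counts in all. Of the 3 tested, 1 was higher and 2 were lower at 20 mg/L, beside 23.8% and 27.2% of all genes. At 50 mg/L none was called by edgeR or DESeq2 (also 0 at an unadjusted p under 0.05), with log2 fold changes of 0.23 to 0.40. Over all genes 17.8% were called higher and 21.8% lower there. With library size alone 2 of the 3 were called higher at 50 mg/L. A10197, at 7.35 ± 0.85 CPM in control, rose to 12.9 ± 0.68 at 20 mg/L (log2 fold change 0.81, SE 0.16, edgeR adjusted p = 0.00159). A00582 fell from 9.02 ± 2.03 to 6.07 ± 1.63 CPM at 20 mg/L (-0.57, SE 0.22, edgeR adjusted p = 0.0466), with overlapping groups and a call that was lost in 10 of 19 alternatives, among them leaving out Control 2, Control 3, Cd20 2, Cd20 3, Cd50 2 or Cd50 3 (edgeR adjusted p of 0.0616 to 0.192). It was higher at 50 than at 20 mg/L (0.97, SE 0.22, edgeR adjusted p = 0.00191). A10197 was lower there (-0.57, SE 0.16, edgeR adjusted p = 0.00645), a call lost in 4 of 19 alternatives, among them library size alone (-0.22, edgeR adjusted p = 0.231). A03189, with 367 counts in all, was at 1.79, 6.13 and 4.16 CPM in Control, 1.16, 1.13 and 0.728 in Cd20, and 2.78, 6.07 and 5.57 in Cd50. Cd20 lay below every other library, and Control 1 and Cd50 1 were the lowest of their groups. Its log2 fold change was -1.96 (SE 0.49, edgeR adjusted p = 0.00595) at 20 mg/L and 2.25 (SE 0.48, edgeR adjusted p = 0.00138) between the concentrations.

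The genes with a product name whose profile over the 9 libraries was most like that of A01726 were A03796 (a potassium channel beta subunit), A05002 (arginyl-tRNA synthetase) and A08139 (a proteasome-domain gene). Their root mean square difference from it was 0.05, 0.07 and 0.07 in log2 CPM after centring, among 2317 genes. The nearest of the 9 other antenna copies, A02505, differed by 0.28. For A10323 the nearest were A03134 (a GPR1/FUN34/yaaH family gene), A09667 (a P-loop hydrolase) and A05715 (a phosphatase 2C-like gene), at 0.08, 0.09 and 0.09. The nearest of its 9 fellow copies was A02982 at 0.29. Among 2317 genes there are many more chances of a close profile than among 9, so the distances of the 2317 and of the 9 cannot be set against each other.

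Few other photosynthesis genes have a product name. Of 8 matched by words for carbon fixation, some of which also serve glycolysis or the pentose phosphate pathway, 5 fell and 1 rose at 20 mg/L, and 5 fell and 1 rose at 50 mg/L. Over all genes 27.2% and 23.8% did so at 20 mg/L and 21.8% and 17.8% at 50 mg/L. Between the concentrations 5 were higher and 1 lower, beside 35.3% and 34.7%. The 5 falls at 50 mg/L were 1 with library size alone or limma, 2 with upper quartile factors and 3 without Control 2, Control 3, Cd50 2 or Cd50 3, and the rise was lost without Cd50 3. A10519, a carbonic anhydrase, the enzyme that converts bicarbonate to CO2 and back, was at 129 ± 13.9 CPM in control, 37.3 ± 5.97 at 20 mg/L and 97.1 ± 7.59 at 50 mg/L. Its log2 fold change was -1.79 (SE 0.13) at 20 mg/L and 1.38 (SE 0.13) between the concentrations (edgeR adjusted p = 1.44e-06 and 2.63e-05). At 50 mg/L it was -0.41 (edgeR adjusted p = 0.0247), a call lost in 8 of 19 alternatives, among them library size alone (-0.17, edgeR adjusted p = 0.324) and leaving out Control 2, Control 3, Cd50 2 or Cd50 3 (edgeR adjusted p of 0.0513 to 0.0720). The Rubisco small chain A03462 fell by 1.03 and fell by 0.79 on the log2 scale at 20 and 50 mg/L (edgeR adjusted p = 7.98e-06 and 6.45e-05). Transketolase A04460, which rearranges sugar phosphates, fell by 0.75 at 20 mg/L (edgeR adjusted p = 4.9e-05) and by 0.43 at 50 mg/L (edgeR adjusted p = 0.00283, but 0.0832 when scaled by library total). GAPDH-like A02374, an enzyme of triose phosphate metabolism, rose at 20 mg/L (0.86, edgeR adjusted p = 0.000883) and was near control at 50 mg/L (0.0072, edgeR adjusted p = 0.976). The gene was thus lower at 50 than at 20 mg/L (-0.85, edgeR adjusted p = 0.000512). A02374 was the lower of 2 GAPDH-named genes, at 19.7 ± 1.30 CPM in control against 671 ± 62.5 for A03980. A03980 went the other way, at -0.997 at 20 mg/L and 0.55 between the concentrations (edgeR adjusted p = 3.62e-05 and 0.00113). At 50 mg/L A03980 was at -0.45 (edgeR adjusted p = 0.0077), a call lost with library size alone.

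The products of tetrapyrrole synthesis include chlorophyll and heme, so not all genes matched by words for it are particular to chlorophyll. Of 5 such genes 3 rose and 1 fell at 20 mg/L, beside 23.8% and 27.2% of all genes. At 50 mg/L 2 rose and 1 fell, beside 17.8% and 21.8%. Between the concentrations 2 were higher and 2 lower, beside 35.3% and 34.7%. Over the 19 alternatives the rises at 20 mg/L ranged from 1 to 3, and at 50 mg/L the rises ranged from 1 to 2 and the falls from 0 to 2. Chlorophyll synthase A03155, which attaches the phytol tail in the last part of chlorophyll synthesis, went from 49.5 ± 7.30 to 28.3 ± 0.60 CPM at 20 mg/L and 66.0 ± 6.38 at 50 mg/L. Its log2 fold changes were -0.81 and 0.42 (edgeR adjusted p = 0.000369 and 0.0186), the second lost without Control 1, Control 3 or Cd50 3 (edgeR adjusted p of 0.0538 to 0.0717). The transcript was higher at 50 than at 20 mg/L, by a log2 fold change of 1.22 (edgeR adjusted p = 3.25e-05). Coproporphyrinogen oxidase-like A07916 rose by 0.54 at 20 mg/L and was lower at 50 than at 20 mg/L, by a log2 fold change of -0.78 (edgeR adjusted p = 0.000323 and 3.64e-05). It was the fall at 50 mg/L (-0.25, edgeR adjusted p = 0.0331), a call lost in 14 of 19 alternatives, among them library size alone (-0.0068, edgeR adjusted p = 0.955) and leaving out any 1 library other than Control 2 and Cd50 1 (edgeR adjusted p of 0.0556 to 0.108). Porphobilinogen synthase A00577, of an early step, rose by 1.07 on the log2 scale at 50 mg/L (edgeR adjusted p = 0.000616). Its rise at 20 mg/L (0.50, edgeR adjusted p = 0.0371) was lost in 9 of 19 alternatives, among them library size alone (edgeR adjusted p = 0.142) and leaving out Control 1, Control 3 or any 1 of the Cd20 libraries (edgeR adjusted p of 0.0648 to 0.146). The words also took in A07083, a protein prenyltransferase subunit, among the rises at 20 mg/L, a call lost without Control 2, Control 3 or any 1 of the Cd20 libraries (edgeR adjusted p of 0.0514 to 0.102).

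For electron transport the words matched only the ferredoxins A03671 and A03950, iron-sulfur electron carriers, and A10133, an enzyme of aromatic amino acid synthesis. Their product names alone do not say whether the 2 ferredoxins serve photosynthesis. A03671 rose from 692 ± 69.4 to 1350.1 ± 117 CPM at 20 mg/L (log2 fold change 0.97, edgeR adjusted p = 7.53e-05) and to 870.4 ± 130 at 50 mg/L (0.33, edgeR adjusted p = 0.0454), the latter lost without Control 2, Control 3, Cd20 1, Cd20 2 or Cd50 1 (edgeR adjusted p of 0.0556 to 0.143). A10133 rose by 0.60 on the log2 scale at 20 mg/L (edgeR adjusted p = 0.00795). At 50 mg/L A10133 was at -0.37 without passing (edgeR adjusted p = 0.0818, and 0.0151 with the replicate block, 0.0451 without Control 2 and 0.00072 without Cd50 1). A03950 did not pass with TMM, at 0.16 and 0.09 at 20 and 50 mg/L, and passed at 50 mg/L with library size alone (0.33, edgeR adjusted p = 0.0121). Both carotenoid genes, the ketolases A10744 and A05367, fell at 50 mg/L, at log2 fold changes of -3.78 and -1.0 (edgeR adjusted p = 2.1e-05 and 0.0143), beside 21.8% of all genes. A10744 was low, at 19.4 ± 5.54 CPM in control, 3.27 ± 0.67 at 20 mg/L and 1.46 ± 1.15 at 50 mg/L. A05367 spread widely, at 128 ± 42.8 CPM in control and 64.1 ± 29.6 at 50 mg/L. Its call at 50 mg/L was lost without Control 1, Cd50 2 or Cd50 3 (edgeR adjusted p of 0.0611 to 0.0649). A10744 also fell at 20 mg/L (-2.56, edgeR adjusted p = 0.000145), where A05367 was at 0.36 without passing (edgeR adjusted p = 0.285, and 0.0462 without Control 1). Between the concentrations A03671, A10133, A05367 and A10744 were all lower at 50 than at 20 mg/L, with log2 fold changes of -0.63, -0.96, -1.37 and -1.22 (edgeR adjusted p of 0.000286 to 0.0276). The call of A10744 was lost without Cd20 1, Cd20 2, Cd50 2 or Cd50 3 (edgeR adjusted p of 0.0821 to 0.104), and also with library size alone, upper quartile factors and limma on FPKM with a pseudocount of 1 (adjusted p of 0.0785, 0.0564 and 0.0561).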

How the data were processed

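No reads were realigned. DESeq2 1.34.0, STAR 2.7.10a and StringTie 2.2.1 were used per the submitters' processing notes, in roles not given in the sources used here. Raw counts, as deposited, are whole numbers. The deposited FPKM values lay within 1% of counts divided by length and column total in 100.0% of non-zero cells. Per the file headers, the authors' tables give log2 fold changes and p-values, for genes under an adjusted p of 0.05 only.

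The test was the quasi-likelihood F-test of edgeR 4.0.16 in R 4.3.3, with TMM and filterByExpr, on all 9 libraries with group alone in the model and adjustment by Benjamini-Hochberg over 11140 genes. SE is the absolute log2 fold change over the square root of F. Alternatives were other scalings, no filter, only the 6 libraries compared, a replicate block, leaving out each library, DESeq2 1.42.0 and limma 3.58.1 on log2 FPKM with a pseudocount of 1 or 0.1. Leaving out Control 1 and Cd50 1 was added after the data were seen.

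All 10 members are named. From each word list the 2 genes of lowest adjusted p per comparison are named. A00125, A02697, A03980, A04880 and A08799 were never among them. A03950, A03980, A07083 and A03189 were named after their values were seen, as were pairs of copies and trios. The members and lists were chosen with earlier results of these data known. Residuals of same-numbered libraries correlated at 0.594, 0.449 and 0.186 for 50 mg/L against control, above the limit of 0.1 set for pairing in each pair, but not for the other comparisons (-0.218 to 0.132).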

Additional observations from a re-analysis of the deposited data

How the results depend on the processing

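Of 570 values of member fold changes under alternatives (10 genes, 3 comparisons, 19 alternatives), 510 kept their direction and their side of the threshold, 23 gained a call, 24 lost one and 13 changed sign, none of them a called value. Of 912 values of other named genes (16 genes, A03980 not among them) 798 kept both, 22 gained a call, 80 lost one and 12 changed sign, none of them called with TMM. The 13 were A02505 at 50 mg/L without Control 2 (-0.030) and, between the concentrations, A02975, A02505 and A03391 with library size alone (0.20, 0.14 and 0.11), upper quartile factors (0.10, 0.032 and 0.0053), limma on FPKM with a pseudocount of 1 (0.20, 0.13 and 0.11) and of 0.1 (0.20, 0.14 and 0.11). The 12 were A02374 at 50 mg/L with DESeq2-type factors and DESeq2 (-0.0034 each), without Control 2, Control 3 or Cd50 1 (-0.0075, -0.035 and -0.19) and without Control 1 and Cd50 1 (-0.11), A03189 at 50 mg/L without Control 1 (-0.064, and up to 0.73 without Control 2), and, between the concentrations, A03950 with library size alone, upper quartile factors, both limma settings (0.29, 0.18, 0.29 and 0.29) and without Cd20 1 (0.041). A03950 passed as higher there with library size alone and limma (adjusted p of 0.0136 to 0.0156). The count of members lower at 50 than at 20 mg/L, 2 with TMM, was 0 with library size alone, upper quartile factors and both limma settings (0 also at an unadjusted p under 0.05), 4 with DESeq2-type factors and 4 without Control 1 and Cd50 1, and ranged from 0 to 3 when 1 library was left out. The other counts of members and of all genes called stayed within 1.5 times. With library size alone the share of rises among all calls was 36.7%, 70.9% and 70.6% at 20 mg/L, 50 mg/L and between the concentrations, against 46.7%, 44.9% and 50.4% with TMM, and the medians of all genes moved from -0.03, 0.03 and 0.03 to -0.16, 0.26 and 0.38. The replicate block changed 1 member call, A02981 at 50 mg/L (log2 fold change -0.50), and moved no count of members past 1.5 times. Causes were not tested. SEs of member fold changes ranged from 0.10 to 0.19, with the highest for A02981.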
